A study of Mus musculus with 12 samples.

Results

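The genes described here encode 10 surface ligands by which antigen-presenting cells stimulate or restrain T cells, chosen by symbol as a list: Cd80, Cd86, Cd274, Pdcd1lg2, Icosl, Cd200, Pvr, Lgals9, Icam1 and Cd48. All 10 have a row among the 28188 gene symbols of the count table, and all 10 passed the filter on low counts in every comparison. RNA from isolated splenic B cells and splenic dendritic cells of mice aged 12 weeks was sequenced as poly(A)-selected libraries in 4 groups of 3. NOD B cells and NOD dendritic cells were the controls, from the strain that develops autoimmune diabetes spontaneously. NOD.Idd2 B cells and NOD.Idd2 dendritic cells came from NOD mice that carry a B10-derived Idd2 locus. All 4 groups thus share the NOD background, and the labels name no treatment. The sources used here do not give the extent of the B10 segment, the way the cells were isolated or the number of animals behind a library. The p-values therefore measure only the spread between these libraries, which may be technical.

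A T cell that meets its antigen needs further signals from the presenting cell, and surface ligands supply them. CD80 and CD86 engage CD28, which stimulates, and CTLA-4, which restrains. ICOS ligand engages ICOS on activated T cells, whereas PD-L1 (Cd274) and PD-L2 (Pdcd1lg2) engage the inhibitory receptor PD-1. CD200 restrains myeloid cells through its receptor, the poliovirus receptor (Pvr) binds stimulatory CD226 and inhibitory TIGIT, and galectin-9 (Lgals9) is a sugar-binding protein reported to act through TIM-3. ICAM-1 is the adhesion partner of the integrin LFA-1, and CD48 binds CD2 and the receptor 2B4 (the gene Cd244a).

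Library totals were 40344883 to 44632276 counts for B cells and 8663421 to 30337812 for dendritic cells, the lowest being NOD.Idd2 dendritic cell replicate 3. Both replicate 3 B cell libraries stood apart. Their chi-square per gene against replicates 1 and 2 of their own group was 37.3 to 42.8, while replicates 1 and 2 differed by 7.28 in NOD and 7.78 in NOD.Idd2. Defining markers matched the labelled cell types: in NOD, Cd79a stood at 1553 CPM (counts scaled to library size) in B cells against 4.13 in dendritic cells, and Itgax at 2.90 against 2126 CPM. T cell receptor complex RNA was low in both, with mean Cd3e levels between 5.06 and 6.44 CPM in the 4 groups. Within NOD.Idd2 B cells Cd3e ranged from 2.95 to 9.53 CPM. Not all of the 17 listed T cell markers were low. Together they were at 145 CPM in NOD B cells and 600 in NOD dendritic cells. Cd4, Cd8a and Tcf7 were at 375, 83.7 and 60.8 CPM in NOD dendritic cells, and Lck at 66.9 in NOD B cells. The macrophage marker Adgre1 was at 278 CPM in NOD dendritic cells and 17.9 in NOD B cells. It was 1 of a list of 13 macrophage and monocyte markers that were split in NOD dendritic cells. There Csf1r, Ccr2 and Cd68 were at 309, 246 and 237 CPM, and the others ranged from Cd5l at 0.352 to Vcam1 at 37.7. Xist was at 1563 to 2088 CPM in every B cell library and at 1 to 4 counts in every dendritic cell library. Ddx3y, Uty, Kdm5d and Eif2s3y, which are Y-linked, had 0 counts in the former and were expressed in the latter. Every difference between cell types below is therefore also a difference between sexes, and those cannot be told apart. Each strain comparison is within 1 sex.

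The ligands were transcribed at very different levels, here as CPM per kilobase of exon so that genes can be compared with each other. In NOD B cells the highest mean levels per kilobase were those of Icosl at 105 and Cd48 at 103, whose library ranges overlapped. Lgals9 at 37.9 and Cd200 at 36.9 came next, and their ranges overlapped as well. Below them, with no overlap between neighbours, stood Cd274 at 27.2, Icam1 at 19.2, Cd86 at 10.4, Pdcd1lg2 at 7.48, Pvr at 2.31 and Cd80 at 1.45. The NOD.Idd2 B cells kept this order except that Cd48 at 105 per kilobase stood above Icosl at 97.6 without overlap.

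In NOD dendritic cells the order per kilobase was Cd48 at 134, Icosl at 113, Cd274 at 95.8, Icam1 at 81.1, Cd86 at 65.7, Cd80 at 33.8, Pdcd1lg2 at 20.6, Lgals9 at 9.63, Cd200 at 4.58 and Pvr at 4.06. Among neighbours in that order, the ranges of Cd200 and Pvr alone overlapped. The order was identical in NOD.Idd2 dendritic cells, where Cd274 at 86.9 and Icam1 at 80.6 overlapped and Cd200 at 4.78 lay above Pvr at 4.01 without overlap. Cd48 and Icosl thus led in all 4 groups, while Cd80 moved from last in B cells to the sixth place in dendritic cells.

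**Figure D1:**
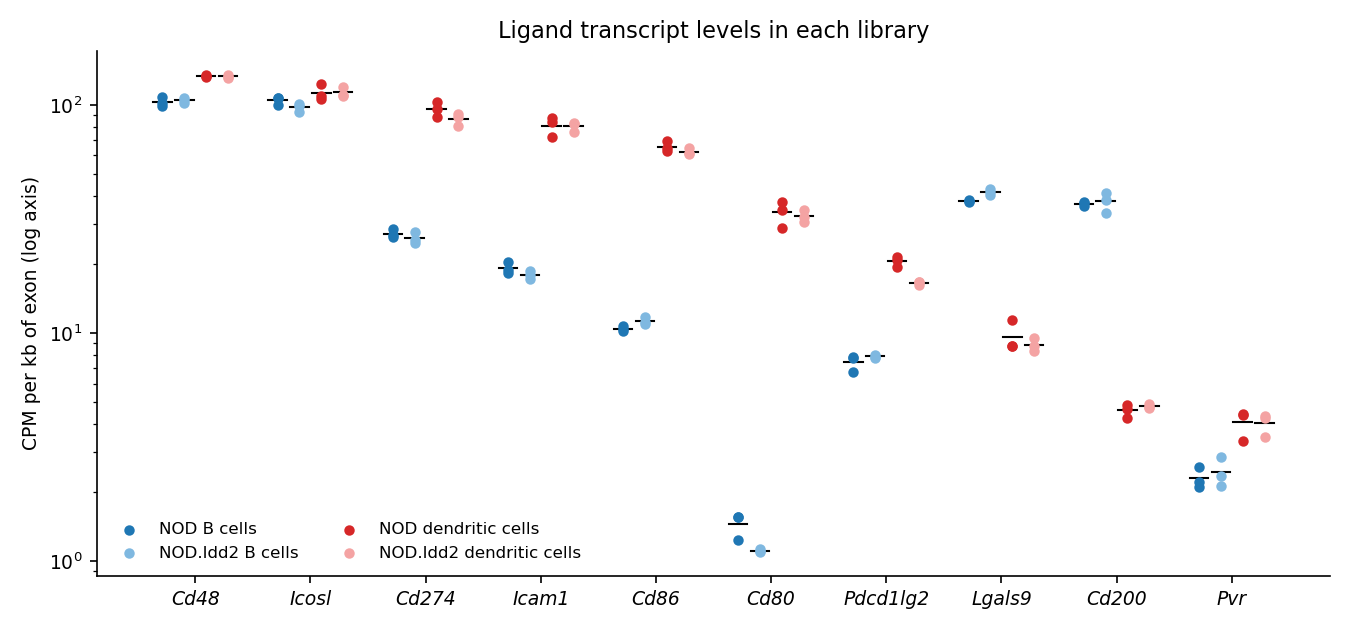
Levels of the 10 ligand genes in each of the 12 libraries, as CPM per kilobase of exon on a log axis, with genes in the order of NOD dendritic cells. Points are libraries, short lines are group means, and colours are the 4 groups. Cd80 in B cells lies lowest, near 1.45 in NOD, and Cd48 in dendritic cells highest, near 134.

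The comparison of dendritic cells with B cells asks how the same ligands are used by both kinds of presenting cell. In NOD, 7 of 10 members were higher in dendritic cells and 2 were lower by the quasi-likelihood test of edgeR, Benjamini-Hochberg adjusted over 16588 genes. Of all genes tested, 76.4% were called there, 37.7% higher and 38.7% lower. In NOD.Idd2, 8 of 10 were higher and 2 lower, against 75.7% called of all genes, 36.7% higher and 38.9% lower. The median log2 difference of the members was 1.14 in NOD and 0.90 in NOD.Idd2, and that of all genes -0.04 and -0.06. CPM ranges of the cell types did not overlap for 9 members in NOD and for 10 in NOD.Idd2, against 77.5% and 78.5% of all genes. The share of members called at all is thus near the background in a comparison where most genes differ. Both contrasts come from a single fit of the 12 libraries but use different libraries. In bulk RNA, fewer cells with a transcript and less of it per cell cannot be told apart.

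Of the members, Cd80 showed the widest gap between the cell types. This B7 gene (chromosome 16, 38455561 to 38496335, plus strand, GRCm38) was at 5.78, 5.80 and 4.56 CPM in the NOD B cell libraries and at 107, 139.5 and 128 in NOD dendritic cells. In NOD.Idd2 its levels were 4.06, 4.16 and 4.09 CPM in B cells and 128, 119.7 and 114 in dendritic cells. No B cell library came near any dendritic cell library. The difference was 23.2-fold in NOD (log2 4.54, SE 0.11, adjusted p 1.13e-12 by edgeR) and 29.4-fold in NOD.Idd2 (log2 4.88, SE 0.12, adjusted p 8.14e-13).

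Cd86 lies on the same chromosome (36603869 to 36666081, minus strand) and encodes the B7 protein that resting presenting cells usually carry. It was at 39.2, 37.9 and 37.3 CPM in NOD B cells and at 238, 254 and 229 in NOD dendritic cells. NOD.Idd2 libraries gave 40.7, 42.9 and 40.1 CPM in B cells and 223, 236 and 225 in dendritic cells. The groups were far apart in both strains, by 6.31-fold in NOD (log2 2.66, SE 0.05) and 5.52-fold in NOD.Idd2 (log2 2.47, SE 0.05).

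Because Cd80 differed more than Cd86, the balance of the pair differed too. Per kilobase and within a library, Cd86 over Cd80 was 6.61 to 8.26 in NOD B cells and 9.92 to 10.4 in NOD.Idd2 B cells. In dendritic cells the ratio was 1.81 to 2.25 in NOD and 1.76 to 1.99 in NOD.Idd2. Cd86 was the more abundant transcript in all 12 libraries, by a smaller factor in every dendritic cell library than in any B cell library.

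The PD-1 ligand genes are neighbours on chromosome 19, both on the plus strand. Cd274 (29367455 to 29388095), for PD-L1, was at 97.3, 103 and 95.4 CPM in NOD B cells and at 319, 373 and 349 in NOD dendritic cells. The NOD.Idd2 libraries gave 92.9, 100.2 and 89.8 CPM in B cells and 329, 321 and 294 in dendritic cells. Dendritic cells were higher by 3.52-fold in NOD (log2 1.82, SE 0.07) and 3.34-fold in NOD.Idd2 (log2 1.74, SE 0.07). An antisense gene shares 511 exon bases with Cd274. The sources used here do not say whether counting used strand, and without strand its reads cannot be told apart from those of Cd274 there.

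Pdcd1lg2 (29410919 to 29471161), for PD-L2, was at 15.3, 15.4 and 13.3 CPM in NOD B cells and at 38.2, 42.3 and 40.8 in NOD dendritic cells. NOD.Idd2 levels were 15.7, 15.5 and 15.2 CPM in B cells and 31.9, 32.8 and 32.9 in dendritic cells. The 6 dendritic cell libraries all lay above the 6 B cell libraries. The difference was 2.76-fold in NOD (log2 1.46, SE 0.07) and 2.10-fold in NOD.Idd2 (log2 1.07, SE 0.07). PD-L1 transcripts outnumbered PD-L2 transcripts per kilobase in every library, with a ratio of 3.45 to 3.89 in NOD B cells, 3.20 to 3.51 in NOD.Idd2 B cells, 4.52 to 4.77 in NOD dendritic cells and 4.83 to 5.59 in NOD.Idd2 dendritic cells.

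Icosl (chromosome 10, 78069302 to 78083913, plus strand), the ICOS ligand gene, was the most evenly shared. It was at 464, 497 and 493 CPM in NOD B cells and 570.3, 503 and 489.7 in NOD dendritic cells, and those ranges overlapped. The 1.08-fold difference in NOD did not pass (log2 0.10, SE 0.06, adjusted p 0.144 by edgeR), except without NOD dendritic cell replicate 3, where the adjusted p was 0.0310. In NOD.Idd2 the levels were 430.1, 466 and 456 CPM in B cells and 556, 509 and 506 in dendritic cells, without overlap. There the 1.16-fold difference passed (log2 0.22, SE 0.06, adjusted p 0.0073). The test of the difference between the strains' contrasts gave an adjusted p of 0.796 for Icosl, so the contrasts were not shown to differ.

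Cd200 and Lgals9 went the other way. Cd200 (chromosome 16, 45382135 to 45409053, minus strand) was at 119.8, 124 and 124 CPM in NOD B cells against 16.1, 14.1 and 15.4 in NOD dendritic cells. In NOD.Idd2 it was at 127, 112 and 137 CPM in B cells and 15.7, 15.6 and 16.2 in dendritic cells. Every dendritic cell library was far below every B cell library, by 8.07-fold in NOD (log2 -3.01, SE 0.08) and 7.92-fold in NOD.Idd2 (log2 -2.99, SE 0.08).

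Lgals9 (chromosome 11, 78962974 to 78984946, minus strand) was at 81.8, 79.9 and 81.2 CPM in NOD B cells and 24.3, 18.7 and 18.7 in NOD dendritic cells. Its NOD.Idd2 levels were 88.3, 86.4 and 91.5 CPM in B cells and 18.8, 20.2 and 17.8 in dendritic cells. The cell types were separate in both strains, with dendritic cells 3.94-fold lower in NOD (log2 -1.98, SE 0.09) and 4.65-fold lower in NOD.Idd2 (log2 -2.22, SE 0.09).

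NOD dendritic cells held 12.4% of the B cell level of Cd200 and 25.4% of that of Lgals9, and NOD B cells held 4.31% of the dendritic cell level of Cd80. Marker lists of the other cell type were measured beside these shares. The 12 B cell markers together were at 3.63% of their B cell level in NOD dendritic cells, with 7 of them under 1%, a median of 0.517% and a highest share of 21.3% for Cd22. The 12 conventional dendritic cell markers together were at 18.5% of their dendritic cell level in NOD B cells. Of these 8 were under 1% and the median was 0.612%, while Wdfy4 was at 36.3%, Dpp4 at 30.7% and Irf4, which B cells also express, at 215%. The part of RNA from the other cell type in the low levels of Cd200, Lgals9 and Cd80 was not tested.

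Icam1 (chromosome 9, 21015985 to 21028817, plus strand), the adhesion ligand, was at 82.5, 80.03 and 89.1 CPM in NOD B cells and 314, 366 and 380.3 in NOD dendritic cells. In NOD.Idd2 it was at 78.2, 81.7 and 75.5 CPM in B cells and 363, 359 and 332 in dendritic cells. Dendritic cells were higher in every library, by 4.21-fold in NOD (log2 2.08, SE 0.07) and 4.48-fold in NOD.Idd2 (log2 2.16, SE 0.07). An antisense gene with a provisional symbol shares 511 exon bases with Icam1, and it held 139 counts over the 12 libraries against 69686 for Icam1.

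The last pair differed least among the members called in both strains. Pvr (chromosome 7, 19903578 to 19921160, minus strand) ranged from 12.9 to 15.9 CPM in NOD B cells and from 20.7 to 27.1 in NOD dendritic cells, a 1.76-fold difference (log2 0.81, SE 0.14, adjusted p 0.000129 by edgeR). In NOD.Idd2 its ranges were 13.01 to 17.5 and 21.4 to 26.4 CPM, a 1.65-fold difference (log2 0.72, SE 0.14). Cd48 (chromosome 1, 171682009 to 171705258, plus strand) ranged from 117 to 128 CPM in NOD B cells and from 158 to 161 in NOD dendritic cells, a 1.30-fold difference (log2 0.38, SE 0.04, adjusted p 3.87e-06 by edgeR). In NOD.Idd2 the ranges were 122 to 128 and 156 to 161 CPM, a 1.27-fold difference (log2 0.35, SE 0.04). Neither gene's ranges overlapped between cell types.

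**Figure D2:**
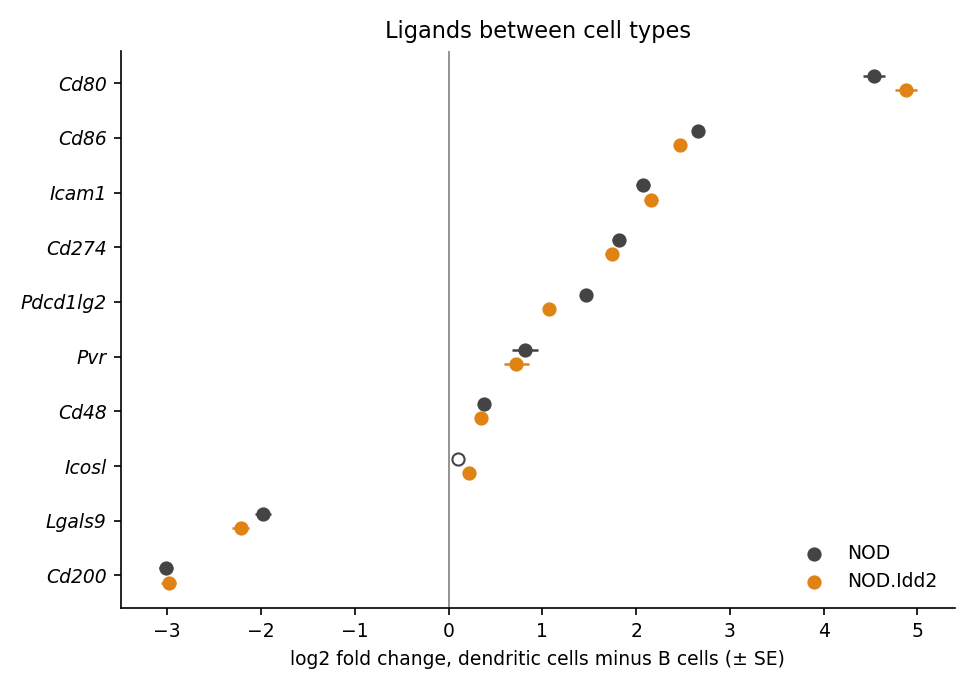
Log2 fold change of each ligand gene, dendritic cells minus B cells, in NOD (grey) and NOD.Idd2 (orange), with bars of 1 standard error and filled points where the adjusted p is under 0.05. Both strains place Cd80 at the top (4.54 and 4.88) and Cd200 at the bottom (-3.01 and -2.99), and the open point is Icosl in NOD.

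Among the 8 members with an entry in the RefSeq promoter table (GRCm38.p6, from the reference mouse strain), windows of 300 bases, 250 before and 50 from the annotated start, were searched on both strands for 4 motifs of factors known to drive such ligands. Cd86 and Pvr have no entry. The motifs were the interferon gamma activated site GAS (TTCNNNGAA), found in 8.30% of all 32851 windows, an interferon regulatory factor (IRF) repeat (GAAANNGAAA, 3.44%), an Ets-IRF composite (GGAANNGAAA, 2.72%) and the NF-kB site (8.46%). The IRF and Ets-IRF motifs share all but their second letter and so cannot match at the same place on the same strand. Shown are the 250 bases before the start for the gene with the largest cell type difference, the neighbouring PD-1 ligand genes, and Lgals9, the window with the most matches. Capitals mark the matched motifs.
Cd80: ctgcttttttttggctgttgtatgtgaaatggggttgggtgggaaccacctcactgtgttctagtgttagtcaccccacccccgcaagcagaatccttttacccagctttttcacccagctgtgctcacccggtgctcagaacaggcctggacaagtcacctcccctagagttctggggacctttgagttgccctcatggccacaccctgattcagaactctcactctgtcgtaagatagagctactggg
Cd274: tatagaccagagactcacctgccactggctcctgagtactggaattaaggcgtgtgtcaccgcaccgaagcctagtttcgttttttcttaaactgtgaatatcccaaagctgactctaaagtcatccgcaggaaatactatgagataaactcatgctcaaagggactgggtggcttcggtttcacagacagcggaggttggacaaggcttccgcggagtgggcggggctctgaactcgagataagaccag
Pdcd1lg2: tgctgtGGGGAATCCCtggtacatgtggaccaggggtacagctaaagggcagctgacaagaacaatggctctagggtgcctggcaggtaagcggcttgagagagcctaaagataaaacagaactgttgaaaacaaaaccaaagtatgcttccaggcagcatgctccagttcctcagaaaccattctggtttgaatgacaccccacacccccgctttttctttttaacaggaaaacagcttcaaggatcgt
Lgals9: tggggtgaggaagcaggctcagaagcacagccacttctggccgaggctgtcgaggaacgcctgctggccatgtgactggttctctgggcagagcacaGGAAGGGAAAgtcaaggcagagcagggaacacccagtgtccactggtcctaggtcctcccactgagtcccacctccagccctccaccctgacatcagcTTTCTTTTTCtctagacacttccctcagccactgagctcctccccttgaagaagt

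These are chr16:38458683-38458932 (plus strand) for Cd80, chr19:29367188-29367437 (plus) for Cd274, chr19:29410669-29410918 (plus) for Pdcd1lg2 and chr11:78984925-78985174 (minus) for Lgals9. The Cd80 window lies inside the span given above for the gene, 38455561 to 38496335, and so precedes a start within it. Only this Cd80 window was used, and no result is given for the bases before 38455561. The Pdcd1lg2 window holds 1 NF-kB match, at -244 to -235 from the start, and the Cd274 and Cd80 windows hold none of the 4 motifs. Lgals9 has 3 matches, an Ets-IRF composite at -153 to -144 and IRF repeats at -55 to -46 and, past the shown bases, at 16 to 25. The Icam1 window holds a GAS match at -42 to -34, the Icosl window an NF-kB match at -111 to -102, and those of Cd200 and Cd48 none. A match describes letters in the reference strain, not binding in these cells.

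Between the strains, NOD.Idd2 minus NOD, none of the members passed in B cells, where 0 of 10 were called against 24 of 15011 genes, or 0.160%. DESeq2 and the replicate block also called 0 members. At an unadjusted p under 0.05 there were 3 members and 961 of all genes. The members' median log2 difference was 0.03, with 6 of 10 above 0, beside 0.01 for all genes. CPM ranges of the strains did not overlap for 3 of 10 members, against 12.8% of all genes.

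Those 3 members were Cd80, Cd86 and Lgals9. Cd80, low in B cells as given above, was at 5.38 ± 0.711 CPM in NOD against 4.11 ± 0.0496 in NOD.Idd2 (SD, n = 3 libraries each). Its log2 difference was -0.39 (SE 0.13, adjusted p 0.750 by edgeR, 0.167 with the replicate block). NOD replicate 3 was the lowest NOD library for Cd80, and without both replicate 3 libraries the log2 difference was -0.50 (SE 0.14, adjusted p 0.670).

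Lgals9 was at 81.0 ± 0.976 CPM in NOD against 88.7 ± 2.55 in NOD.Idd2 B cells (SD, n = 3), a log2 difference of 0.13 (SE 0.04, adjusted p 0.750 by edgeR, 0.126 with the block). Cd86 was at 38.1 ± 0.973 and 41.2 ± 1.48 CPM, a log2 difference of 0.11 (SE 0.04, adjusted p 0.765). The other 7 members had log2 differences between -0.11 (Icosl) and 0.08 (Pvr), and their strain ranges overlapped. Icosl was lower in NOD.Idd2 than in NOD at each of the 3 replicate numbers, at 430.1 against 464 CPM, 466 against 497 and 456 against 493. The Icosl log2 difference of -0.11 had an SE of 0.05 and an adjusted p of 0.793 by edgeR, and an SE of 0.03 and an adjusted p of 0.132 with the replicate block. Marker lists of other cells were measured in the same B cell libraries. Of the T cell, natural killer cell and neutrophil markers tested, 15 of 17, 0 of 10 and 0 of 5 were above 0. Their median log2 differences were 0.22, -0.45 and -1.17, with none called in the main fit. The part of these markers in the members' strain differences was not tested.

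In dendritic cells 1 of 10 members was called, Pdcd1lg2, against 186 of 14441 genes, or 1.29%, and 0.623% of genes called lower. The gene for PD-L2, whose upstream window is shown above, was at 40.4 ± 2.09 CPM in NOD against 32.6 ± 0.574 in NOD.Idd2 dendritic cells (SD, n = 3 each). It was lower by 1.23-fold in NOD.Idd2 (log2 -0.30, SE 0.06, adjusted p 0.0477 by edgeR), and the highest NOD.Idd2 library lay below the lowest NOD library. CPM ranges did not overlap for this member alone, beside 16.5% of all genes. Its p-value ranked 184 of the 186 called. The call was lost in 8 of 13 alternative settings, with adjusted p between 0.0098 and 0.244 over all 13, while the log2 difference stayed between -0.34 and -0.26. It was lost with the replicate block (adjusted p 0.0560), in the fit of all 12 libraries (0.0595), with limma on the deposited normalized counts (0.0563), without NOD replicate 2 (0.190) or 3 (0.0611), and without NOD.Idd2 replicate 1 (0.224), 2 (0.244) or 3 (0.144). It held under DESeq2 (0.0339).

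**Figure D3:**
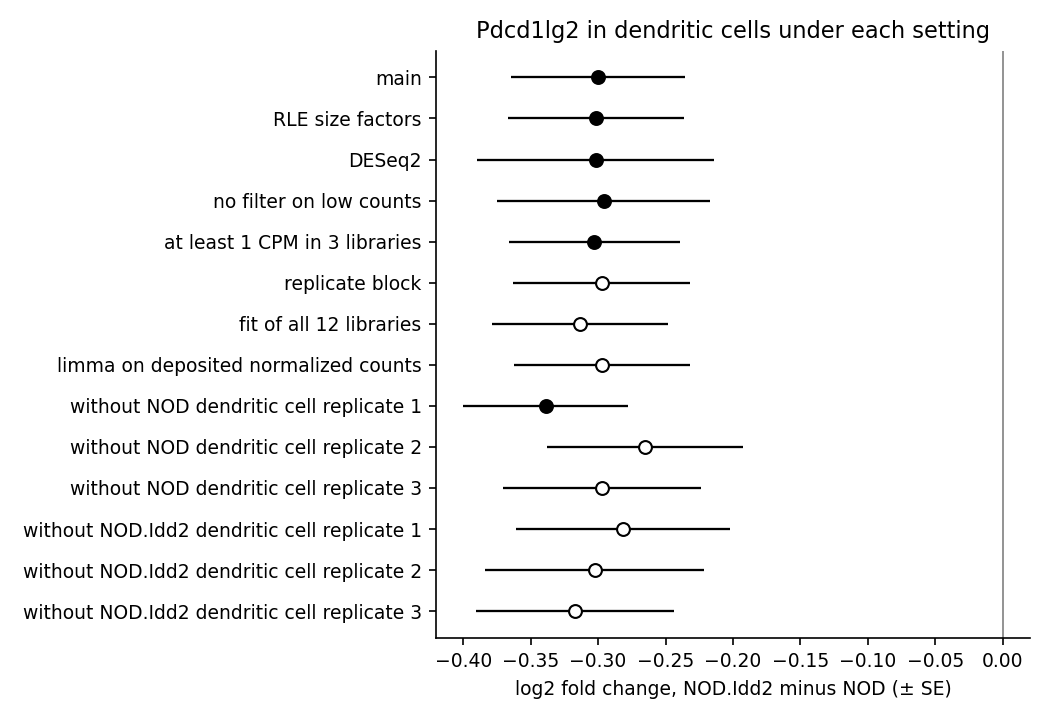
Log2 fold change of Pdcd1lg2 in dendritic cells, NOD.Idd2 minus NOD, under the main setting and 13 alternatives, with bars of 1 standard error and filled points where the adjusted p is under 0.05. All values lie between -0.34 and -0.26, and 8 of the 13 alternatives are open points.

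Its neighbour Cd274 had a log2 difference of -0.12 (SE 0.06, adjusted p 0.490 by edgeR), with 347 ± 27.0 CPM in NOD and 315 ± 18.4 in NOD.Idd2 dendritic cells (SD, n = 3). The strain ranges of Cd274 overlapped, since NOD replicate 1 at 319 CPM lay below NOD.Idd2 replicates 1 and 2. The other 8 members had log2 differences between -0.09 (Lgals9) and 0.07 (Cd200) with adjusted p of at least 0.729. The members' median was -0.01, with 5 of 10 above 0, beside 0.0006 for all genes.

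**Figure D4:**
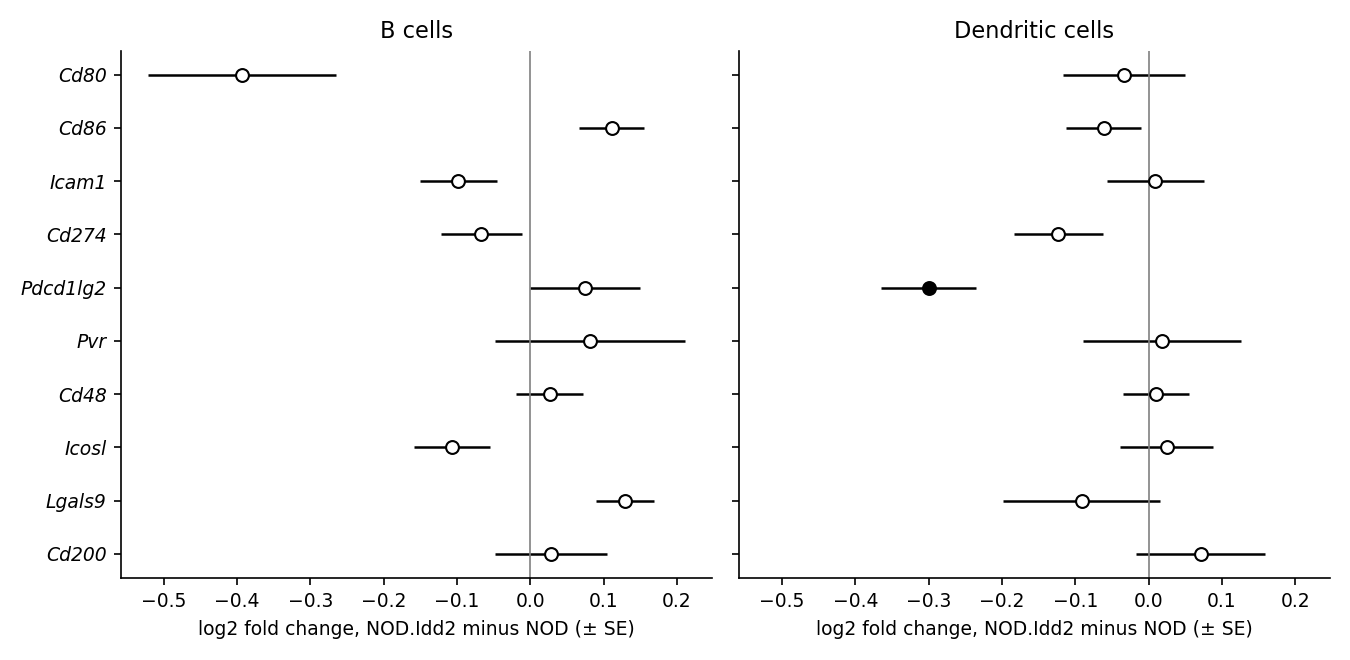
Log2 fold change of each ligand gene, NOD.Idd2 minus NOD, in B cells (left) and dendritic cells (right), with bars of 1 standard error and filled points where the adjusted p is under 0.05. The only filled point is Pdcd1lg2 in dendritic cells at -0.30, and the B cell value farthest from 0 is that of Cd80 at -0.39.

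The difference of strain effects between the cell types was tested directly in the 12-library fit. None of the members passed, 0 of 10 against 18 of 16588 genes, or 0.109%. DESeq2 also called 0, and 3 members and 1363 of all genes had an unadjusted p under 0.05. Pdcd1lg2 came nearest, with a difference of -0.39 on the log2 scale (SE 0.09, adjusted p 0.204 by edgeR and 0.0858 by DESeq2). Cd86 gave -0.19 (SE 0.07, adjusted p 0.488) and Cd80 0.34 (SE 0.15, adjusted p 0.602). The strain difference of Pdcd1lg2 was thus not shown to be particular to dendritic cells.

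**Figure D5:**
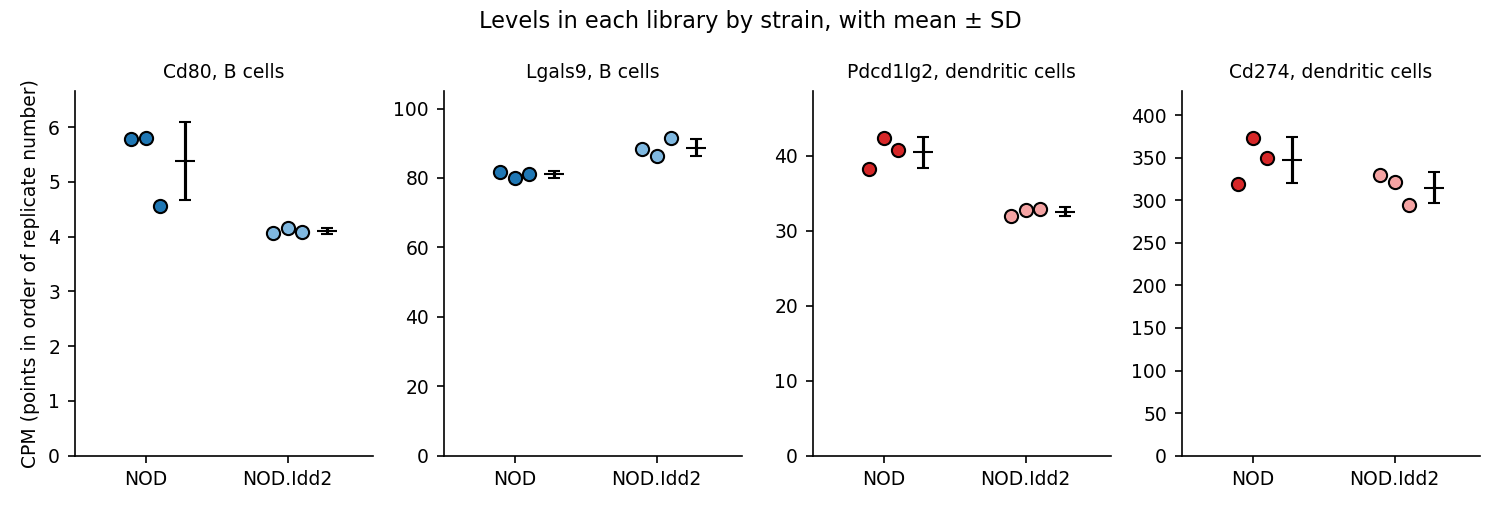
CPM in each library by strain for Cd80 and Lgals9 in B cells and Pdcd1lg2 and Cd274 in dendritic cells, on axes from 0, with mean ± SD beside the points. Strains are separate for Cd80, Lgals9 and Pdcd1lg2 and overlap for Cd274, and of these differences that of Pdcd1lg2 alone passed the adjusted threshold.

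Of 9723 genes with a mean of at least 5 CPM, those most like Pdcd1lg2 over the 6 dendritic cell libraries were Cbr3, Gp2 and Gpank1, with Pearson correlations of log2 CPM of 0.993, 0.993 and 0.990. The 6 points share their strain groups and scaling, and they are given as a description.

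Genes that work with these ligands were followed as lists. Counts of list genes between cell types stand beside 37.7% of all genes higher and 38.7% lower in NOD dendritic cells. In NOD.Idd2 those shares were 36.7% and 38.9%. Between strains, 0.160% of all genes were called in B cells and 1.29% in dendritic cells. Most genes differ between the cell types, so the list counts there are given as a description. Of the receptors of the ligands, 0 of 13 tested were called between strains in B cells and 0 of 12 in dendritic cells. The replicate block added Cd2, a CD48 receptor, in B cells (adjusted p 0.0381, and 0.780 without it). The most abundant were the integrin chains: Itgb2 was at 169 ± 4.03 CPM in NOD against 172 ± 5.38 in NOD.Idd2 B cells, and Itgal at 309 ± 8.34 and 313 ± 8.55. Between cell types in NOD, 7 of 14 receptors were higher in dendritic cells and 1 lower, the same counts as in NOD.Idd2. Havcr2, the TIM-3 gene, was at 0.855 ± 0.269 CPM in NOD B cells and 477 ± 35.7 in NOD dendritic cells. Cd244a, a CD48 receptor, was at 23.0 ± 0.908 and 353 ± 20.7 CPM, and Itgam, an integrin chain that pairs with Itgb2 and also binds ICAM-1, at 2.01 ± 0.377 and 42.7 ± 3.42.

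Among B7 and butyrophilin relatives none of 6 tested was called between strains in B cells and none of 7 in dendritic cells. Between cell types in NOD, 5 of 7 were higher in dendritic cells and 2 lower, and in NOD.Idd2 4 and 2. Vsir, the gene for the inhibitory ligand VISTA, was at 18.8 ± 1.43 CPM in NOD B cells and 222 ± 7.80 in NOD dendritic cells. Btla, an inhibitory receptor, was at 1078 ± 30.1 and 236 ± 7.99 CPM.

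The nectin family and its partners, relatives of Pvr, included strain differences on chromosome 9. In B cells 1 of 5 tested was called, Crtam, a lymphocyte receptor, at 7.61 ± 1.05 CPM in NOD against 0.559 ± 0.221 in NOD.Idd2 (log2 -3.77, SE 0.27, adjusted p 0.00295 by edgeR). In dendritic cells 1 of 6 was called, Cadm1, the adhesion protein that CRTAM binds, at 87.9 ± 10.95 and 53.6 ± 3.75 CPM (log2 -0.69, SE 0.09, adjusted p 0.00212). With the replicate block Cadm1 was also called lower in B cells (adjusted p 0.0464), where it was at 0.931 ± 0.200 and 0.349 ± 0.0435 CPM. Between cell types in NOD, 4 of 6 were higher in dendritic cells and 2 lower, among them Nectin1 at 5.75 ± 0.638 and 161 ± 22.5 CPM. In NOD.Idd2 4 were higher and 0 lower.

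Of the integrin ligands and synapse adhesion genes, relatives in function of Icam1, 0 of 8 were called between strains in B cells and 1 of 9 in dendritic cells. That gene was Jaml, a junctional adhesion molecule on chromosome 9, at 241 ± 28.7 CPM in NOD against 186 ± 6.83 in NOD.Idd2 (log2 -0.36, SE 0.07, adjusted p 0.0410 by edgeR). Its call was lost in 6 of 13 alternatives: in the 12-library fit (adjusted p 0.117), without NOD replicate 2 (0.141) or 3 (0.0597), and without NOD.Idd2 replicate 1 (0.181), 2 (0.153) or 3 (0.208). Icam1 also lies on chromosome 9 and was at 353 ± 34.8 and 351 ± 16.9 CPM in the same libraries. Between cell types 8 of 9 were higher in dendritic cells and 1 lower in each strain, with Sirpa, the receptor of CD47, at 30.9 ± 1.82 and 1186 ± 83.8 CPM in NOD.

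The SLAM family and CD2 relatives, the family of Cd48, had 0 of 8 called between strains in B cells and 0 of 9 in dendritic cells. They were split between cell types, 4 of 9 higher and 4 lower in dendritic cells in each strain. Cd84 was at 250.5 ± 7.20 CPM in NOD B cells and 6.42 ± 0.849 in NOD dendritic cells, and Slamf7 at 87.6 ± 0.584 and 485 ± 24.0. TNF family costimulators were split as well, 4 of 8 higher and 4 lower in each strain, and 0 of 8 and 0 of 7 were called between strains. Cd40, which receives T cell help, was at 189 ± 8.33 CPM in NOD B cells and 95.4 ± 5.45 in NOD dendritic cells. Of the other galectins 2 of 4 were higher and 2 lower in each strain, with Lgals8 at 166 ± 4.78 and 68.2 ± 2.13 CPM in NOD. Between strains 0 of 4 galectins were called in either cell type, and the replicate block added Lgals1 in dendritic cells (adjusted p 0.0303).

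Pathways known to induce several of the ligands were also followed, and their counts stand beside the same shares of all genes. Of the NF-kB pathway 13 of 20 genes were higher in NOD dendritic cells than in NOD B cells and 5 lower, with Relb at 68.2 ± 5.02 and 451 ± 31.6 CPM and Traf1 at 72.1 ± 5.37 and 785 ± 48.7. In NOD.Idd2 13 were higher and 6 lower. None of the 20 was called between strains in either cell type, and Nfkb1 was at 933 ± 56.6 CPM in NOD against 922 ± 32.9 in NOD.Idd2 dendritic cells. The median log2 strain difference of the list in dendritic cells was -0.04, with 4 of 20 above 0.

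Of the interferon gamma and STAT pathway 11 of 18 were higher in NOD dendritic cells and 5 lower, and in NOD.Idd2 10 and 3. Ifngr1, the ligand-binding receptor chain, was at 117 ± 3.89 CPM in NOD B cells and 763 ± 38.6 in NOD dendritic cells, and the kinase gene Jak2 at 193 ± 5.06 and 1081 ± 36.2. Between strains 0 of 16 were called in B cells. The list's median log2 strain difference in dendritic cells was -0.10, with 5 of 18 above 0, beside 0.0006 for all genes.

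Dendritic cell maturation genes, known to be induced as these cells load antigen and move to T cell areas, were 12 of 15 higher and 3 lower in dendritic cells in each strain. Of all genes, 37.7% were higher and 38.7% lower in NOD, and 36.7% and 38.9% in NOD.Idd2. Fscn1, for an actin-bundling protein, was at 1.97 ± 0.364 CPM in NOD B cells and 224 ± 22.0 in NOD dendritic cells. Between strains 0 of 13 were called in B cells and 0 of 15 in dendritic cells, where the median log2 difference was -0.09 and 5 of 15 were above 0. Marker lists of macrophages and monocytes and of conventional dendritic cells were measured beside the call of Pdcd1lg2. The 13 macrophage and monocyte markers summed to 1104 to 1262 CPM in the NOD and 1302 to 1333 in the NOD.Idd2 dendritic cell libraries. Of the 12 that were tested, 6 were above 0, the median log2 difference was 0.008, and none was called in the main fit. From NOD to NOD.Idd2 dendritic cells, mean Ccr2 rose from 246 to 360 CPM and Csf1r from 309 to 352. Mean Adgre1 fell from 278 to 260 CPM and Cd68 from 237 to 230. Of the B cell and plasma cell markers tested in dendritic cells, 2 of 11 and 7 of 7 were above 0, with none called. Of the T cell, natural killer cell and neutrophil markers, 14 of 17, 9 of 9 and 5 of 5 were above 0. Their median log2 differences were 0.21, 0.35 and 0.41, and none was called. Of the plasmacytoid dendritic cell markers, 4 of 6 were above 0. The 12 conventional dendritic cell markers summed to 8549 to 9268 and 8624 to 8802 CPM, with 7 of 12 above 0 and a median log2 difference of 0.05. Clec10a and Cd209a of that list, and Ccr2, were not called in the main fit (adjusted p 0.0609, 0.0757 and 0.0515 by edgeR). They were called higher in NOD.Idd2 with the replicate block (0.0443, 0.0362 and 0.0190), though replicate numbers were not taken to pair dendritic cell libraries. The part of these markers in the strain difference of Pdcd1lg2 was not tested.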

How the data were processed

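Whole-number read counts per gene symbol were deposited by the authors, with a second table of normalized values (a signal). Per the file values, the deposited normalized signal is each library's counts divided by 1 factor. STAR (version 0.12.2, as written) and the build GRCm38 are named in the submitters' processing notes. For the counting tool, annotation and use of strand: not given in the sources used here. Members, related lists and naming rule were chosen with earlier results of these data known. All members are named. Of each list at most 4 genes per comparison are, those called with the smallest p, or the most abundant where none was called. Results for some list genes that the rule would name are left out.

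Counts were tested with edgeR 4.0.16 (R 4.3.3, TMM scaling, filterByExpr at 10 counts and a total of 15, quasi-likelihood test, Benjamini-Hochberg adjustment over all tested genes, threshold 0.05). Strains were compared within the 6 libraries of a cell type, and cell types and the difference of strain effects in a fit of all 12. The SE is the log2 fold change divided by the root of F. Levels are TMM-scaled CPM, per kilobase of GENCODE M21 exons where genes are compared; 27693 of 28188 symbols matched. Alternatives were RLE factors, DESeq2 1.42.0, other filters, the replicate block, limma 3.58.1 on log2(normalized counts + 1) and left-out libraries. Leaving out both replicate 3 B cell libraries was added after seeing the data. The tests were first tested on simulated data.

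Replicate numbers come from the sample titles. Deviations of same-numbered libraries correlated at 0.641, 0.515 and 0.824 across strains in B cells. Replicates 1 and 2 also correlated across numbers, at 0.421 and 0.489, and replicate 3 with either at -0.699 to -0.577. These values set replicate 3 apart but do not show that replicates 1 and 2 pair by number. The replicate block is given only as an alternative. In dendritic cells same-numbered libraries correlated at -0.02, 0.119 and 0.115, and the numbers were not taken to pair them.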

Additional observations from a re-analysis of the deposited data

Results flagged for a closer look

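Crtam, a receptor gene of the nectin partners list and not a member, had strain differences that differed between the cell types, by 2.71 on the log2 scale (SE 0.43, adjusted p 0.0398 by edgeR, difference of strain effects in the 12-library fit). It was at 7.61 ± 1.05 and 0.559 ± 0.221 CPM in NOD and NOD.Idd2 B cells and at 1.03 ± 0.249 and 0.492 ± 0.115 CPM in the dendritic cells (SD, n = 3). The call was lost in 10 of 18 alternatives, all of them with a single library left out: every library except NOD.Idd2 B cell replicate 1 and NOD dendritic cell replicate 1, with adjusted p of 0.0572 to 0.236 where lost.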

How the results depend on the processing

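No member's call changed under any alternative in B cells between strains or in the interaction of strain and cell type. For dendritic cells against B cells, Icosl in NOD alone changed, passing without NOD dendritic cell replicate 3. The count of members called in dendritic cells between strains was 0 in the fit of all 12 libraries, with limma on the deposited normalized counts and with the replicate block, and 0 to 1 without single libraries. The cause was not tested.

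Counts over all genes moved more. In B cells the 24 calls became 122 with DESeq2, 42 in the 12-library fit, 156 with the replicate block, 46 without both replicate 3 libraries and 13 to 18 without single libraries. In dendritic cells the 186 calls became 296 with DESeq2, 94 in the 12-library fit, 700 with no filter and 63 to 332 without single libraries. The 18 calls on the difference of strain effects became 115 with DESeq2, 33 with no filter and 7 to 19 without single libraries. The replicate block changed no other member's call.

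Several uncalled log2 strain differences near 0 changed sign. In B cells Cd200 was -0.040 without both replicate 3 libraries. In the 12-library fit the dendritic cell values of Cd48, Icam1 and Pvr were -0.0061, -0.0074 and -0.0046. Without single libraries the B cell values ranged from -0.046 to 0.11 for Cd200, -0.0054 to 0.055 for Cd48 and -0.042 to 0.17 for Pvr. The dendritic cell values ranged from -0.13 to 0.054 for Cd80, -0.067 to 0.063 for Icam1, -0.020 to 0.096 for Icosl, -0.16 to 0.048 for Lgals9 and -0.099 to 0.087 for Pvr. The differences of strain effects ranged from -0.048 to 0.10 for Cd200 and -0.19 to 0.036 for Pvr.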
